A study of Mus musculus with 4 samples.

Results

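Emr1, Emr4, Lyz1, Lyz2, Maf and Mpeg1 are 6 genes by which mouse macrophages and other phagocytes are recognised, and their levels were read in macrophages sorted from leukaemic and normal mice. The genes were taken by their symbols in the deposited tables, and all 6 had reads in each of the 4 libraries, out of 17008 genes with a read in any library. The study sorted macrophages from C57BL/6J mice and sequenced their RNA to set leukaemia-associated macrophages beside those of homeostasis. The groups are T-ALL bone marrow, normal bone marrow, T-ALL spleen and normal spleen, with 1 library each. The T-ALL mice had received GFP-positive T cell acute lymphoblastic leukaemia cells from diseased mice, at an age of 6 to 8 weeks and without irradiation, and their macrophages were sorted on day 21. The normal libraries are given the same strain and age, and the treatment text, which speaks of leukaemia mice sorted on day 0 and day 21, does not say more of them. No source used here gives the markers of the sort, the number of animals behind a library or their sex, and the labels do not say whether animals were pooled.

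Emr1 encodes F4/80, an adhesion receptor of the EGF-TM7 family whose antibody is the classic label of mouse tissue macrophages, and Emr4 encodes its myeloid relative FIRE. Mpeg1 encodes perforin-2, a pore-forming protein that attacks bacteria inside phagosomes. Maf is a basic leucine zipper transcription factor that is switched on as monocytes become macrophages. Maf is also made by some helper T cells. Lysozymes cut the peptidoglycan of bacterial cell walls. In the mouse Lyz2, or lysozyme M, is the form of macrophages, monocytes and neutrophils, and Lyz1, or lysozyme P, is best known from Paneth cells of the gut. F4/80 is strong on splenic red pulp macrophages and on the island macrophages of bone marrow, while Lyz2 is strong throughout the granulocyte and monocyte lineages.

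After scaling, library sizes ran from 8939756 to 9856658 uniquely mapped reads. Levels are CPM, the usual depth-scaled read counts, and 1 read was worth 0.101 to 0.112 CPM. Values in parentheses after a level or a fold are 95% counting intervals, which leave out the spread between animals. With a single library in each group nothing could be checked against replicates, and p-values are not given. A gene was called higher or lower where log2(CPM + 1) differed by at least 1, or 2-fold, and the larger of the levels was at least 10 CPM. The 4 comparisons draw on the same 4 libraries, so those within a condition and those within an organ share libraries. Xist, the RNA that silences an X chromosome, was at 0.644 and 416 CPM in T-ALL bone marrow and spleen, against 861 and 849 CPM in the normal bone marrow and spleen libraries. The Y-linked Ddx3y had 874 and 532 reads in T-ALL bone marrow and spleen and 0 reads in either normal library. These sex-linked transcripts moved with condition, and Xist also differed between the T-ALL libraries, of which the spleen library held reads of both genes. The part of sex was not tested, in T-ALL against normal or in T-ALL spleen against T-ALL bone marrow.

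The label of the cells was checked against 14 macrophage genes outside the 6, among them Csf1r, Cd68, Cd14, Mertk, Fcgr1, Itgam and Ctss. None was at 0 in any library. Their summed level was 4839 CPM in T-ALL bone marrow, 1822 CPM in normal bone marrow, 3927 CPM in T-ALL spleen and 6793 CPM in normal spleen. In normal bone marrow Itgam, an integrin chain that neutrophils carry too, made up 39.8% of that sum. Next there came Spi1, Tyrobp and Fcer1g at 251, 206 and 181 CPM, while Csf1r was at 133 CPM and Mertk at 3.65 CPM. How much of the 14-gene sum came from cells other than macrophages was not tested, for Itgam or for the other genes. Genes of mature neutrophils were abundant in both bone marrow libraries. The 11 of them with a line, out of 12 listed, summed to 30081 CPM in T-ALL and 37678 CPM in normal bone marrow. In T-ALL and normal spleen they summed to 207 and 661 CPM. None of these 11 was at 0 in any library. In both bone marrow libraries their sum was far above that of the 14 macrophage genes. The 11 genes took 2.98% of all reads in T-ALL and 3.79% in normal bone marrow, although both libraries are labelled macrophages. What part of the RNA came from granulocytes was not estimated. How much the mix of cells adds to the folds between the bone marrow libraries was not tested.

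The lysozyme genes lie next to each other on chromosome 10 in the RefSeq table. The likeness of their transcripts, which bears on how reads can be assigned to them, is given further below. The 250 bases before each start site are shown because these neighbours kept nearly the same pattern over the libraries. They come from RefSeq (GRCm38.p6), Lyz1 at chr10:117292869-117293118 and Lyz2 at chr10:117282273-117282522, both on the minus strand, written 5′ to 3′, with capitals for bases that differ from or have no partner in the other gene in a global alignment.
Lyz1: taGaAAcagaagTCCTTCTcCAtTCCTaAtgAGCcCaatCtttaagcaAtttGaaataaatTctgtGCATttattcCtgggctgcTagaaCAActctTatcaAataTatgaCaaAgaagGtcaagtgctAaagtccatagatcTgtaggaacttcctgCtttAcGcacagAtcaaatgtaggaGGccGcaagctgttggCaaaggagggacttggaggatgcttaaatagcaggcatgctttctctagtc
Lyz2: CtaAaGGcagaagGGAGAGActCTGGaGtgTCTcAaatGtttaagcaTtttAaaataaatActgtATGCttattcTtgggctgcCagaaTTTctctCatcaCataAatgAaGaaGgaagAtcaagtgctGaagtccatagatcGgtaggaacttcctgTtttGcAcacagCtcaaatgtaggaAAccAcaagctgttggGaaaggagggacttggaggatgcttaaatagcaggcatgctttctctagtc
Of 252 aligned columns, 200 held the same base, or 79.4%. The last 50 bases before the start site were identical. TGCTGA, the first letters of the Maf recognition element, was found in the window of Lyz2, in the orientation written, from 125 to 120 bases before the start, and in neither orientation in that of Lyz1. On either strand TGCTGA occurs in 16.1% of 32851 RefSeq windows of the same length. GAGGAA, a form of the PU.1 site, and the TATA letters TATAAA occur in 23.3% and 12.4% of those windows on either strand. Neither lysozyme window holds them. The shorter GGAA within GAGGAA was not counted, and it does occur in both lysozyme windows. Emr4 and Mpeg1, the other genes with a window in the table, held none of these letters on either strand. Emr1 and Maf have no window there.

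All 6 genes were higher in T-ALL than in normal bone marrow by the 2-fold rule, and none was higher in T-ALL than in normal spleen. In bone marrow 8.01% of the 9716 genes measured were called higher and 1.03% lower. In spleen 4 of the 6 genes were called lower, Emr4, Lyz1, Lyz2 and Maf, and 0 higher, while of the 9774 genes measured 11.0% were called lower and 10.3% higher. Emr1 and Mpeg1 also had smaller values in T-ALL spleen, with less than a 2-fold difference. The median log2 fold of the 6 genes was 2.22 in bone marrow and -1.37 in spleen, and that of all genes measured was -0.04 and -0.08. In such bulk RNA, fewer cells of a type and less RNA of a gene per cell cannot be told apart.

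**Figure D1:**
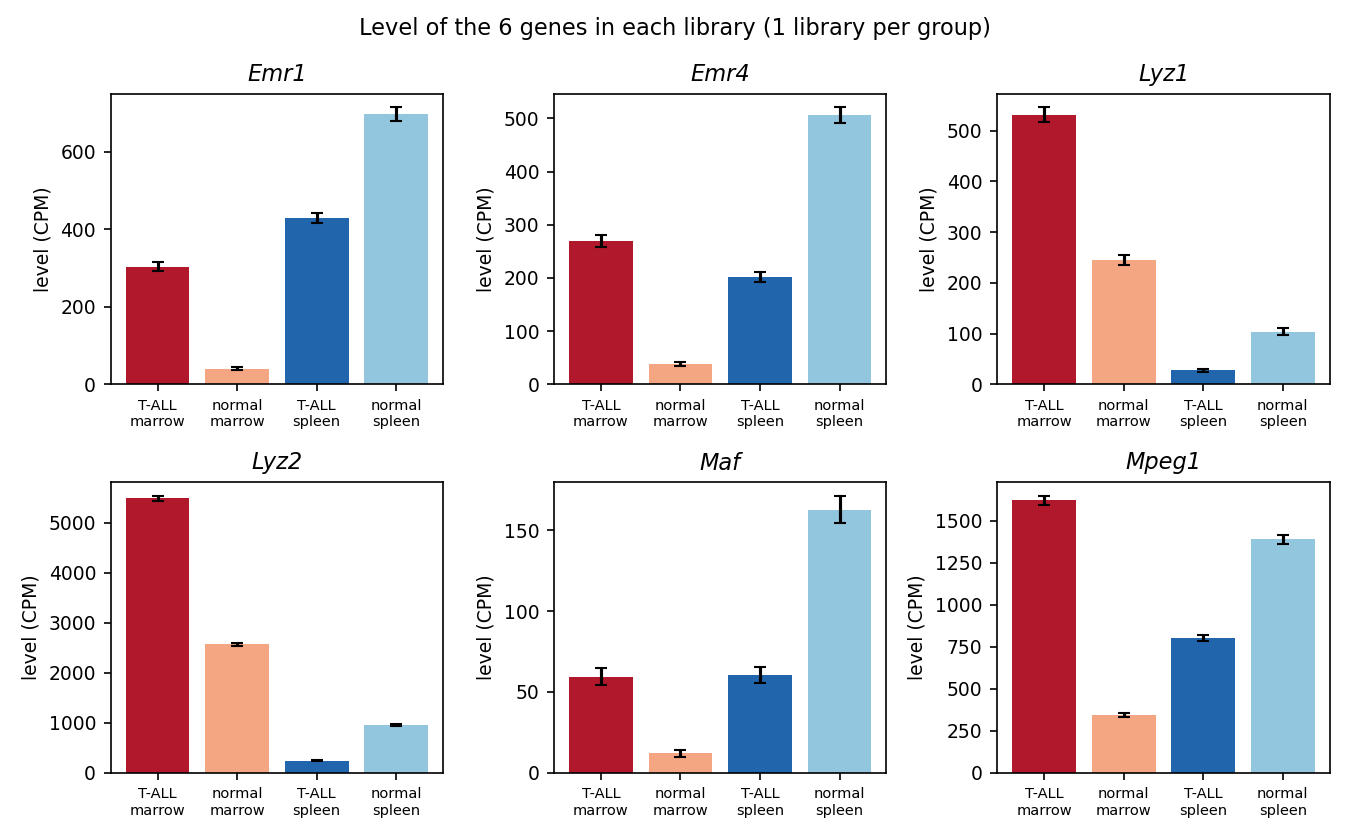
CPM of each gene (y axes, starting at 0) in the 4 libraries, T-ALL beside normal within each organ, with bars for the level and lines for its 95% Poisson interval. Every gene has a taller bar in T-ALL than in normal bone marrow and a shorter one in T-ALL than in normal spleen, and the lysozymes are the genes with both bone marrow bars above both spleen bars.

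Emr1, the F4/80 gene, stood at 303 CPM (292 to 315) in T-ALL and 39.5 CPM (35.6 to 43.6) in normal bone marrow. It stood at 429 CPM (416 to 443) in T-ALL spleen and 698 CPM (681 to 715) in normal spleen. Normal bone marrow was thus the low library, and the other 3 lay within a narrower band. The fold was 7.69 (6.91 to 8.57) higher in T-ALL bone marrow and 1.62 (1.56 to 1.69) lower in T-ALL spleen. Emr4 had 269 CPM (259 to 279.9) in T-ALL and 38.2 CPM (34.5 to 42.3) in normal bone marrow. In spleen it had 202 CPM (193 to 211) in T-ALL and 506 CPM (491 to 521) in normal mice. Normal bone marrow was again the low library, but here T-ALL bone marrow lay above T-ALL spleen. Emr4 was 7.04-fold (6.31 to 7.86) higher in T-ALL bone marrow and 2.51-fold (2.38 to 2.65) lower in T-ALL spleen.

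The balance between these receptors differed between the organs. Emr4 made up 47.0% (45.7 to 48.3, Wilson) of the summed Emr1 and Emr4 reads in T-ALL bone marrow and 49.2% (45.7 to 52.8) in normal bone marrow. In T-ALL spleen its part was 31.9% (30.8 to 33.2), and in normal spleen 42.0% (41.1 to 43.0). The intervals overlap between the bone marrow libraries and not between the spleen libraries. Cd97, the third measured gene of the family and one that most leukocytes express, went the same ways. It was at 603 CPM in T-ALL and 275 CPM in normal bone marrow, a fold of 2.19 (2.09 to 2.29). It was at 399.6 CPM in T-ALL and 954 CPM in normal spleen, 2.39-fold (2.30 to 2.48) lower.

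Mpeg1 was the member with the narrowest range, 4.70-fold between its highest and lowest library. It reached 1624 CPM (1598 to 1649.7) in T-ALL and 345 CPM (334 to 357) in normal bone marrow. In spleen it reached 801 CPM (783 to 819.9) in T-ALL and 1389.7 CPM (1365 to 1414) in normal mice. It differs from Emr1, Emr4 and Maf in that T-ALL bone marrow, not normal spleen, was its highest library. The fold was 4.70 (4.53 to 4.88) higher in T-ALL bone marrow and 1.73 (1.68 to 1.78) lower in T-ALL spleen. Of the 7 MACPF pore-forming genes listed, 4 had a line. Mpeg1 was the only one measured at 10 CPM or more in a bone marrow library. In spleen 1 of 3 measured was called lower and 0 higher, beside 11.0% and 10.3% of all genes measured. Prf1, the perforin of killer lymphocytes, was at 6.60 CPM in T-ALL and 18.2 CPM in normal spleen, 2.76-fold (2.05 to 3.77) lower, and under 10 CPM in both bone marrow libraries. C6, a component of the complement pore, was at 98.4 CPM in T-ALL and 182 CPM in normal spleen, against 0.644 and 0.406 CPM in T-ALL and normal bone marrow. C8a had 1 read in each normal library and 0 in each T-ALL library, which allows up to 3 reads.

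Maf had the lowest RPKM, the level per gene length, of the 6 genes in every library. It was at 59.5 CPM (54.6 to 64.6) in T-ALL and 12.0 CPM (9.91 to 14.3) in normal bone marrow. In spleen it was at 60.2 CPM (55.3 to 65.4) in T-ALL and 163 CPM (154 to 171) in normal mice. The T-ALL libraries of the organs lay within each other's intervals, between a low normal bone marrow and a high normal spleen. Maf was 4.97-fold (4.06 to 6.11) higher in T-ALL bone marrow and 2.70-fold (2.45 to 2.99) lower in T-ALL spleen. Since helper T cells make Maf, the T cell list belongs beside it. All 9 of its measured genes were called higher in T-ALL bone marrow, beside 8.01% of all genes measured. In T-ALL spleen 7 of 10 were called higher and 1, Cd8a, lower, beside 10.3% and 11.0% of all genes. The 10 genes summed to 706 CPM in T-ALL and 170.2 CPM in normal bone marrow, and to 3274 CPM in T-ALL and 1156 CPM in normal spleen. The T cell sum was larger in T-ALL in both organs. Within it, Cd4 was at 54.2 CPM in T-ALL and 17.9 CPM in normal bone marrow, and at 264 CPM in T-ALL and 256 CPM in normal spleen. The sum is thus not a measure of helper T cells. The T-ALL mice had received leukaemic T cells, which the genes of this list do not tell apart from other T cells. The part of T cells of either kind in the Maf values was not tested.

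Of the bZIP factors that can pair with Maf proteins, Bach1, Bach2, Maff and Nfe2 passed the 2-fold rule in at least 1 organ. Bach1, a repressor that pairs with small Maf proteins, was at 199 CPM in T-ALL and 98.3 CPM in normal bone marrow, 2.02-fold (1.87 to 2.19) higher and near the threshold. It was at 84.6 CPM in T-ALL and 111 CPM in normal spleen, under 2-fold. Maff, a small Maf protein, was called higher in T-ALL spleen, at 27.6 CPM in T-ALL and 9.28 CPM in normal spleen, and was under 10 CPM in both bone marrow libraries. Bach2, a repressor best known from B cells, was at 43.5 CPM in T-ALL and 91.2 CPM in normal spleen, 2.09-fold (1.86 to 2.37) lower. Nfe2, the partner of small Maf proteins in megakaryocytes and erythroid cells, was at 8.99 CPM in T-ALL and 19.4 CPM in normal spleen, 2.15-fold (1.65 to 2.83) lower. In bone marrow Nfe2 was at 152 CPM in T-ALL and 184 CPM in normal mice, under 2-fold.

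**Figure D2:**
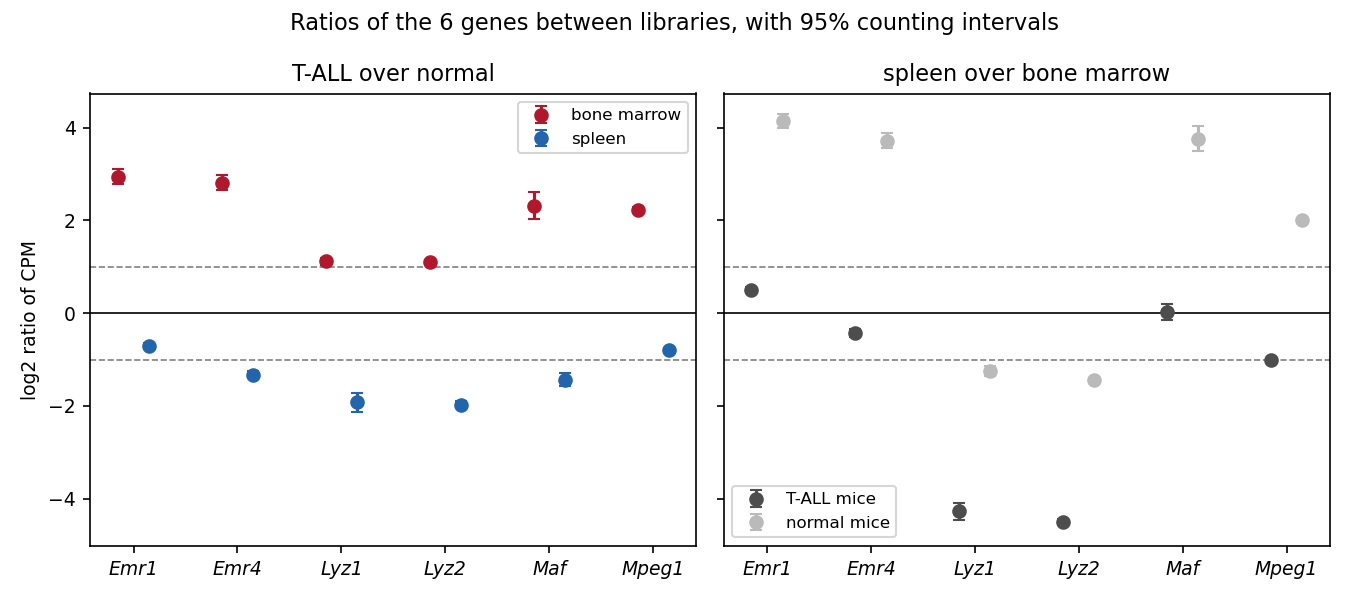
Log2 ratios of CPM without a pseudocount for the 6 genes, T-ALL over normal in each organ (left) and spleen over bone marrow in T-ALL and in normal mice (right), with lines for 95% exact binomial intervals and dashed lines at 2-fold. On the left each bone marrow point lies above 1 and each spleen point below 0, and on the right the lysozymes lie below 0 in both conditions.

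The lysozymes were the genes that set the bone marrow apart from the spleen in both conditions. Lyz2 was at 5494 CPM (5447 to 5542) in T-ALL and 2572 CPM (2540.3 to 2604) in normal bone marrow. In spleen it was at 241 CPM (231 to 252) in T-ALL and 946 CPM (926 to 966) in normal mice. Both bone marrow libraries were above both spleen libraries, with no overlap of intervals. In T-ALL bone marrow Lyz2 alone took 0.545% of all reads and ranked 4 among all genes by RPKM, while in T-ALL spleen it ranked 260. Its fold was 2.14 (2.10 to 2.17) higher in T-ALL bone marrow, the smallest of the 6 genes there, and 3.92 (3.74 to 4.11) lower in T-ALL spleen, the largest. Lyz1 was at 531 CPM (516 to 546) in T-ALL and 245 CPM (235 to 255) in normal bone marrow, and at 27.4 CPM (24.1 to 31.0) in T-ALL and 104 CPM (97.0 to 110.5) in normal spleen. Its folds, 2.17 (2.06 to 2.28) higher in bone marrow and 3.78 (3.29 to 4.36) lower in spleen, have intervals that overlap those of Lyz2. The other 7 lysozyme genes listed, such as Lyg1, Lyzl4 and Spaca3, had no line in any table.

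Neutrophils and monocytes make lysozyme M too, so their genes stand beside these values. For the counts that follow, 8.01% of all genes measured were called higher and 1.03% lower in T-ALL bone marrow. In T-ALL spleen 10.3% were called higher and 11.0% lower. The 9 genes of neutrophil precursors summed to 4096 CPM in T-ALL and 16016 CPM in normal bone marrow, and all 9 were called lower in T-ALL, beside 1.03% of all genes measured. Lyz2 was higher in that library. Of 11 mature neutrophil genes measured in bone marrow, 3 were called higher (Retnlg, Mmp8 and Mmp9) and 0 lower, and the median log2 fold was -0.21. The 7 classical monocyte genes summed to 4625 CPM in T-ALL and 3314 CPM in normal bone marrow, and 4 of them were called higher, with Fn1 at the top at 982 and 64.5 CPM. In spleen 7 of 8 measured mature neutrophil genes were called lower, as was Lyz2, with a median of -1.77, while the monocyte sum was 502 CPM in T-ALL and 449 CPM in normal spleen. Dendritic cell genes were called lower in 8 of 8 in T-ALL spleen, with a summed level of 209 CPM in T-ALL and 922 CPM in normal spleen. In T-ALL bone marrow 2 of 4 measured (Cd209a and Itgax) were called higher and 0 lower, and the list summed to 241 CPM in T-ALL and 175 CPM in normal bone marrow. Among the remaining lists, T-ALL bone marrow had 1 of 5 measured eosinophil genes (Ccr3), 3 of 6 erythroid genes, 1 of 6 B cell genes (Ms4a1) and 0 of 5 NK cell genes called higher and 0 called lower in each. T-ALL spleen had 1 of 2 eosinophil genes (Ccr3), 1 of 4 erythroid genes (Epor), 3 of 6 B cell genes and 3 of 4 NK cell genes called lower and 0 called higher in each. The part of these cells in the lysozyme values was not tested. In lists this short, a single called gene beside those shares says little about a cell type.

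**Figure D3:**
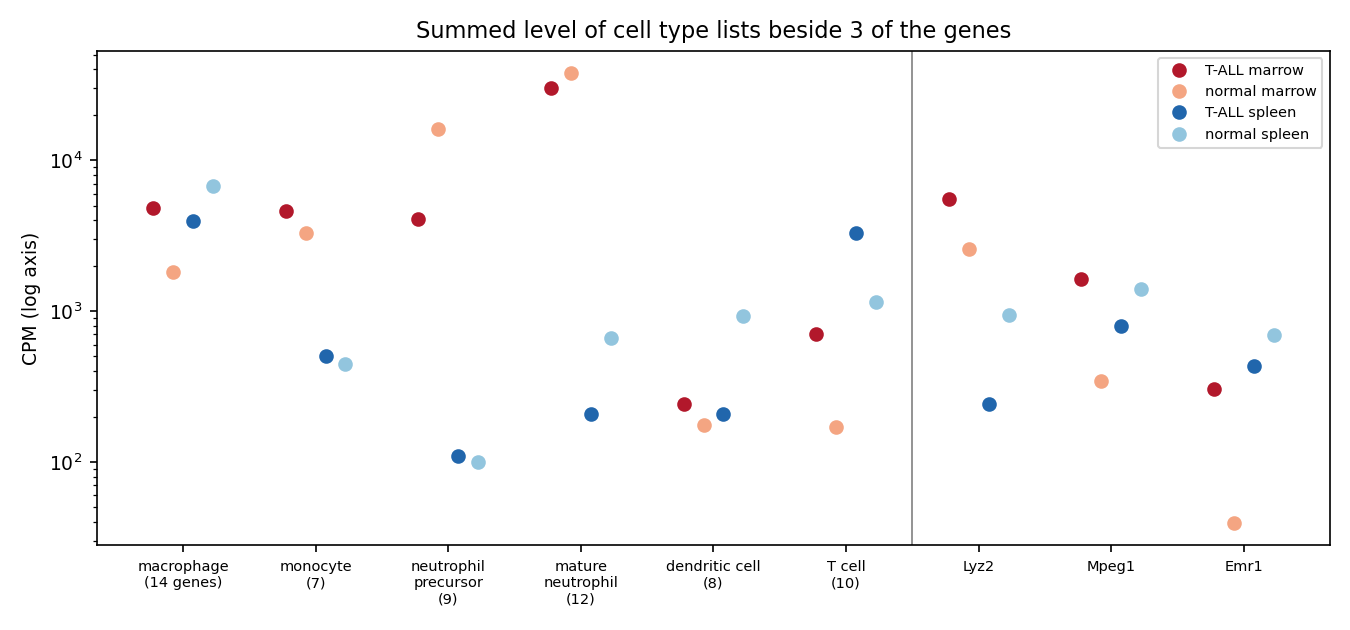
Summed CPM of 6 cell type lists (left of the line, with the number of genes listed) and CPM of Lyz2, Mpeg1 and Emr1 (right), on a log axis, by library. Mature neutrophil genes summed to 30081 and 37678 CPM in T-ALL and normal bone marrow, and to 207 and 661 CPM in T-ALL and normal spleen.

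Lyz1 followed Lyz2 as a nearly fixed part of the lysozyme reads. It held 8.81% (8.58 to 9.05, Wilson) of their summed reads in T-ALL and 8.69% (8.37 to 9.03) in normal bone marrow. In spleen it held 10.2% (9.06 to 11.4) in T-ALL and 9.87% (9.28 to 10.5) in normal mice. Over these libraries the level of Lyz2 varied 22.8-fold. The GENCODE M21 transcripts of these genes, 1263 and 1316 bases long, were 96.0% identical over 1262 aligned bases, with a longest shared run of 118 bases. Of all windows of 36 bases in the Lyz1 transcript, 28.5% also occur in that of Lyz2, and of windows of 100 bases 2.06%. No window of 50 bases in the transcripts of Emr1, Emr4, Maf or Mpeg1 occurs in a transcript of another gene. No source used here gives the read length or the counting rule, and how many lysozyme reads could be placed uniquely is unknown.

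The deposited coverage, the percent of a gene's length that reads touch, behaved unlike the read number for Lyz1. It was 95.6% with 4948 reads in T-ALL bone marrow, but 65.1% with 2414 reads in normal bone marrow. In spleen it was 66.3% with 253 reads in T-ALL and 86.6% with 926 reads in normal mice. Normal bone marrow therefore had more Lyz1 reads than normal spleen and a smaller part of the gene covered. Other genes of like read number and length had a median coverage of 97.7% in normal bone marrow (36 genes) and 95.6% in T-ALL spleen (168 genes). Lyz2 was covered to between 94.6% and 95.8% in every library. Whether part of the Lyz1 reads comes from Lyz2 transcripts was not tested, and the values of Lyz1 are uncertain for that reason.

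**Figure D4:**
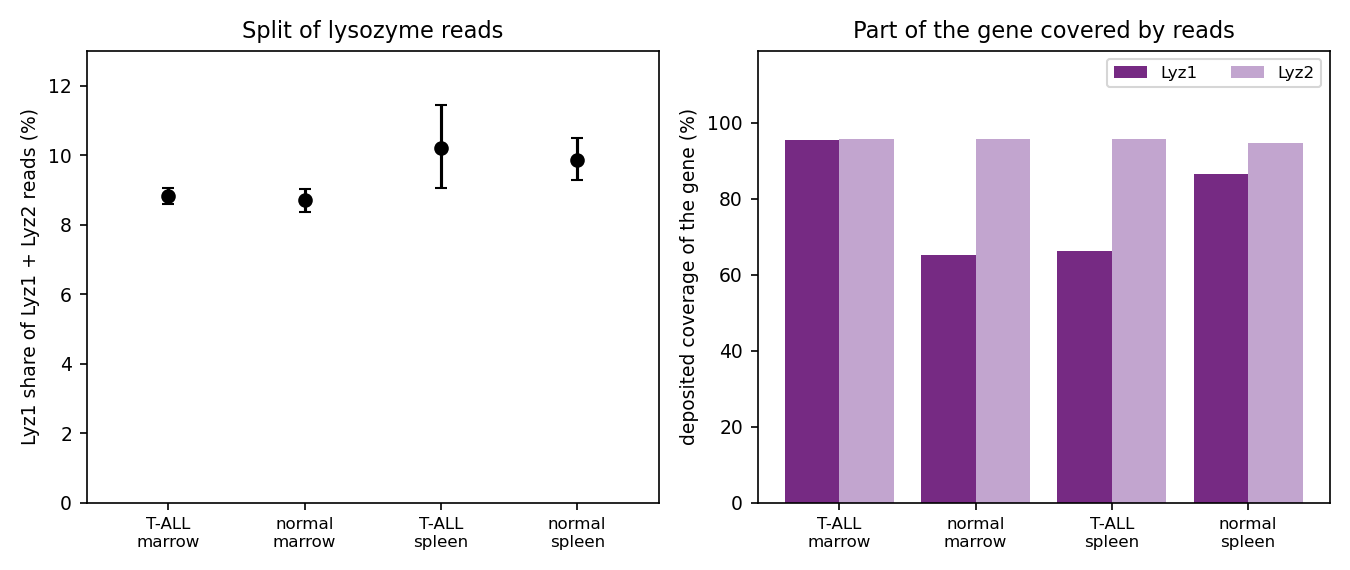
Left, the percent of summed Lyz1 and Lyz2 reads that fall on Lyz1, with 95% Wilson intervals. Right, the authors' coverage of each gene in percent of its length; Lyz1 stands at 65.1% and 66.3% in normal bone marrow and T-ALL spleen, and Lyz2 between 94.6% and 95.8% in all libraries.

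Per length, Lyz2 was the most abundant of the 6 genes in all 4 libraries and the order below it differed by organ. By deposited RPKM, T-ALL bone marrow held Lyz2 at 5153, Lyz1 at 411, Mpeg1 at 370.2, Emr1 at 92.7, Emr4 at 76.4 and Maf at 16.2. Normal bone marrow kept the same order, with Lyz2 at 2445, Mpeg1 at 79.8 and Maf at 3.30 RPKM. In T-ALL spleen Lyz2 stood at 230.2, above Mpeg1 at 186 and Emr1 at 133, with Emr4 at 58.2, Lyz1 at 21.5 and Maf at 16.7 RPKM. In normal spleen the order was that of T-ALL spleen, with Lyz2 at 891, Mpeg1 at 318 and Maf at 44.5 RPKM. Lyz1 thus ranked above the receptors in bone marrow and below them in spleen. Within each gene, 17 of the 18 neighbouring pairs of library levels had intervals that did not overlap, and the exception was Maf between T-ALL spleen and T-ALL bone marrow. The share over all genes was not computed. Counting intervals are narrow at such read numbers, so this count does not set the 6 genes apart from others.

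Between the organs, the macrophage genes and the lysozymes went opposite ways in normal mice. All 6 passed the 2-fold rule there, beside 30.2% of 10072 genes measured in either direction. Emr1, Emr4, Maf and Mpeg1 were higher in normal spleen than in normal bone marrow. Emr1 was 17.7-fold (16.0 to 19.6), Maf 13.6-fold (11.3 to 16.5), Emr4 13.2-fold (11.9 to 14.7) and Mpeg1 4.02-fold (3.87 to 4.18) higher. Lyz2 was 2.72-fold (2.65 to 2.79) and Lyz1 2.36-fold (2.19 to 2.55) lower. In T-ALL mice 0 of the 6 were called higher in spleen than in bone marrow, beside 5.44% of 9852 genes, and 3 were called lower, beside 11.0%. These were Lyz2 at 22.8-fold (21.8 to 23.8), Lyz1 at 19.4-fold (17.1 to 22.1) and Mpeg1 at 2.03-fold (1.97 to 2.08). The call of Mpeg1 rests on the scaling: its log2 fold was -1.02, and it lay between -0.99 and -0.92 with library totals, median-of-ratios factors, RPKM or TMM without genes of other cell types, which leaves 2 genes lower. Emr1 was 1.42-fold (1.35 to 1.49) higher and Emr4 1.34-fold (1.26 to 1.42) lower. For Maf the ratio was 1.01 (0.898 to 1.14). Mature neutrophil genes were called lower in spleen in 11 of 11, in T-ALL and in normal mice alike, and their part was not tested.

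Set against other macrophage genes of the same library, the 6 genes separated further. Csf1r is the receptor through which the growth factor M-CSF keeps macrophages alive. For each 100 reads of Csf1r, Emr1 had 32.1 reads in T-ALL and 29.6 in normal bone marrow, and 30.2 in T-ALL and 28.9 in normal spleen. This ratio moved little while Emr1 itself varied 17.7-fold. Emr4 had 28.4 and 28.7 reads in T-ALL and normal bone marrow, but 14.2 in T-ALL and 20.9 in normal spleen. Lyz2 had 580.2 and 1931 reads in T-ALL and normal bone marrow, and 17.0 and 39.2 in T-ALL and normal spleen. Relative to Csf1r, Lyz2 was 3.33-fold lower in T-ALL bone marrow, although its CPM was higher there. In spleen it was 2.31-fold lower relative to Csf1r.

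The summed reads of the 14 macrophage genes gave another picture in bone marrow and the same in spleen. Per 100 reads of that list, Lyz2 had 114 in T-ALL and 141 in normal bone marrow, 1.24-fold lower, and 6.15 in T-ALL and 13.9 in normal spleen, 2.27-fold lower. Mpeg1 had 20.4 and 20.5 reads per 100 in T-ALL and normal spleen, a ratio of 0.998. In T-ALL and normal bone marrow it had 33.6 and 19.0 per 100 list reads, 1.77-fold higher, but 171 and 259 per 100 Csf1r reads, 1.51-fold lower. Maf turned likewise, with 1.23 and 0.657 per 100 list reads and 6.28 and 8.99 per 100 Csf1r reads in T-ALL and normal bone marrow. Emr1 and Emr4 were 2.90-fold and 2.65-fold higher relative to the list in T-ALL bone marrow, and with Csf1r alone in its place they were 1.08-fold and 0.99-fold of the normal value. Itgam made up 18.1% of the list's reads in T-ALL and 39.8% in normal bone marrow, and 2.01% and 3.21% in T-ALL and normal spleen. How far the list's reads reflect macrophages alone was not tested, so ratios to the list are not ratios to macrophage RNA. Of the 14 genes, 11 were called higher and 0 lower in T-ALL bone marrow (median log2 fold 2.42), from Mertk, a receptor for dying cells, at 3.57 to Itgam at 0.27. In spleen 0 were called higher and 8 lower (median -1.02), from Lgmn, a lysosomal protease, at 0.14 to Itgam at -1.45. Of 15 genes of resident macrophages, 14 of 14 measured were called higher in T-ALL bone marrow (median 3.14), and 2 were called higher and 7 lower in T-ALL spleen (median -0.72). Among all genes measured, 8.01% were called higher and 1.03% lower in T-ALL bone marrow, and 10.3% higher and 11.0% lower in T-ALL spleen.

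**Figure D5:**
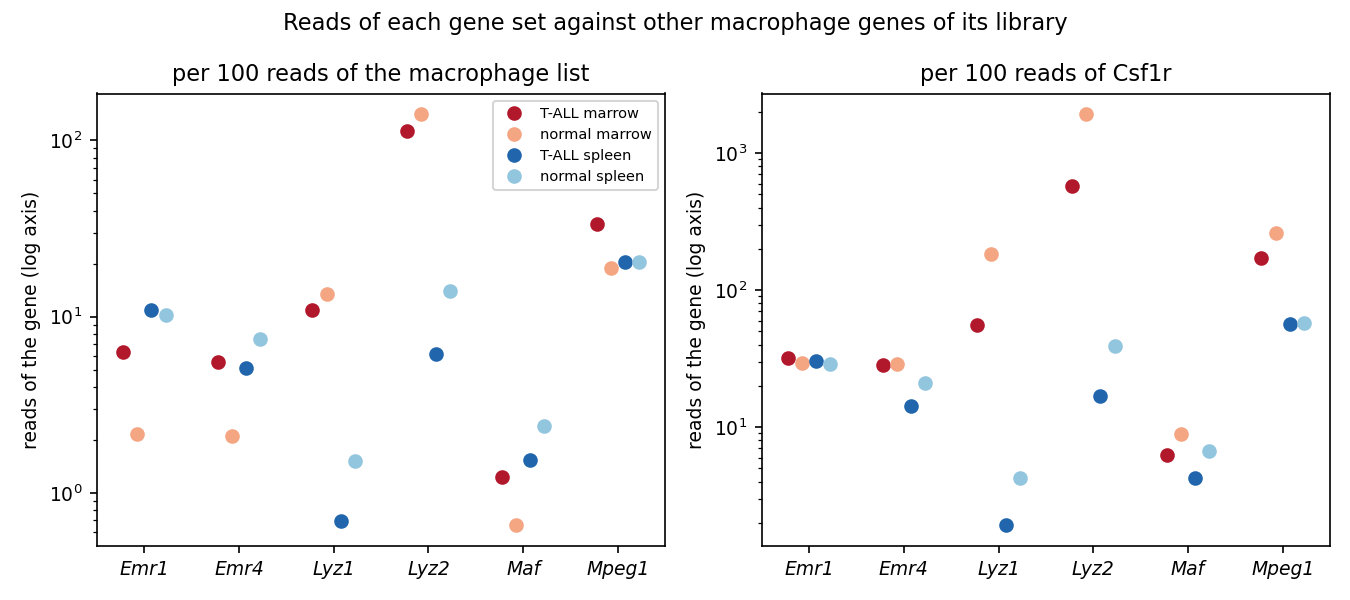
Reads of each gene per 100 reads of the 14-gene macrophage list (left) and per 100 reads of Csf1r (right), log axes, by library. Per Csf1r, Emr1 lies between 28.9 and 32.1 in all libraries and Lyz2 between 17.0 and 1931.

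The genes most like each member over the 4 libraries were found by the root-mean-square distance between log2(CPM + 1) values centred on each gene's mean, among 9602 genes with 10 CPM or more in a library. With 4 points per gene, each from 1 library, these distances describe the libraries only. For Emr1 the nearest was Csf1r, at a distance of 0.05 log2 units, then Hpgds, a prostaglandin D synthase, at 0.11 and Slc11a1, the metal transporter Nramp1 of phagosomes, at 0.11. For Emr4 they were Itgb5, an integrin chain, Adap2 and Ly86, the MD-1 partner of a Toll-like receptor relative, at 0.10, 0.12 and 0.14. Maf had Mrap, Tmem51 and Marchf1 at 0.10, 0.10 and 0.14, and Mpeg1 had Tppp3, Itfg3 and the sugar transporter Slc2a6 at 0.08, 0.09 and 0.10.

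The lysozymes had few near matches apart from each other. Their distance from each other was 0.12, and the nearest other gene of both was Ifitm6, an interferon-induced transmembrane protein gene, at 0.13 from Lyz2 and 0.17 from Lyz1. Ifitm6 was at 243 CPM in T-ALL and 135 CPM in normal bone marrow, and at 10.5 CPM in T-ALL and 52.0 CPM in normal spleen. Next to Lyz2 came G0s2, an inhibitor of fat breakdown, at 0.25 and Mmp25, a membrane-bound metalloprotease, at 0.35. Next to Lyz1 came Ccl9, a chemokine, at 0.32 and G0s2 at 0.34. Among the 6 genes, Emr4 and Maf lay 0.23 apart and Emr1 lay 0.40 from Emr4 and 0.42 from Maf. Lyz2 lay 1.83 from Mpeg1 and 2.75 from Emr1, the widest distance among the 15 pairs.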

How the data were processed

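Sorted macrophages of T-ALL and normal mice gave 1 RNA-seq library for each organ and condition, grouped by sample title. Per the labels' protocols, a Qiagen RNeasy kit and standard Illumina library steps were used. Per the file headers, each table gives for a gene the count of uniquely mapped reads, its length, its coverage in percent of that length, its RPKM, a Gene ID and a symbol. The deposited counts add up to the header's total, and a gene without a line was set to 0. The authors' RPKM of the 6 genes could be recomputed from count, length and total. For aligner, counting rule, genome build and annotation: not given in the sources used here.

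TMM factors (0.991 to 1.01) came from edgeR 4.0.16 under R 4.3.3 and gave CPM. Python 3.11.15 did the rest, with scipy 1.17.1, numpy 2.4.6, pandas 2.3.3, matplotlib 3.10.9 and Biopython 1.88. Levels have exact Poisson, ratios exact binomial and shares Wilson 95% intervals; ratios to other macrophage genes have normal intervals on the log scale. They cover counting error only, and they may be too narrow even for that, since PCR copies are not independent molecules. With no replicates, no count model was fitted. Coverage of Lyz1 was set beside genes within 1.25-fold of its reads and length. The code that applies the 2-fold rule was checked on simulated Poisson counts with known folds. Log2 folds use a pseudocount of 1 CPM, which understates the change of low genes. Spi1 and Siglecf were found through their Gene IDs under older symbols, and date-like symbols (Marchf1) were restored in the same way from the RefSeq gene table (GRCm38.p6).

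The 6 genes, the lists and the rule for named genes were chosen with earlier results of these data known. The rule names the 6 genes, Csf1r, relatives of the 6, the highest, lowest and most abundant genes of a list, and the 3 genes most like each of the 6, leaving out predicted and sex-linked genes. Named beside the rule, with values known, are Xist, Ddx3y, the members of short counts, and Itgam, Spi1, Tyrobp, Fcer1g and Mertk as parts of their list. Other settings were total-read and median-of-ratios scaling, TMM without genes of other cell types, pseudocounts of 0.1 and 5 CPM, no minimum or 50 CPM, the RPKM, and thresholds of 1.5-fold and 4-fold. A relative that the rule would name is not reported here.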

Additional observations from a re-analysis of the deposited data

Results flagged for a closer look

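For all 6 genes the log2 fold of T-ALL over normal was above 0 in bone marrow and below 0 in spleen. With 1 library per group this difference between organs was not tested. The log2 folds were 2.91 in bone marrow and -0.70 in spleen for Emr1, 2.78 and -1.32 for Emr4, 2.23 and -0.79 for Mpeg1, and 2.22 and -1.42 for Maf. For the lysozymes they were 1.09 and -1.97 for Lyz2 and 1.11 and -1.88 for Lyz1. In spleen Emr1 and Mpeg1 differed by less than 2-fold and were not called.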

How the results depend on the processing

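No paired analysis was possible because each group has 1 library and no result comes from a test; for the same reason no library could be left out. The numbers of the 6 genes called higher or lower in the 4 comparisons stayed within 1.5 times of those reported under every scaling, pseudocount, minimum and RPKM setting and under a 1.5-fold threshold. With that threshold 6 in place of 4 were lower in T-ALL spleen, as Emr1 and Mpeg1 were then called too. In those scaling, pseudocount, minimum and RPKM settings 1 call was lost, Mpeg1 in T-ALL spleen against T-ALL bone marrow, as given above. With a 4-fold threshold 4 in place of 6 genes were higher in T-ALL bone marrow, and 0 in place of 4 were lower in T-ALL spleen. Between the organs 0 in place of 2 were then lower in normal spleen against normal bone marrow. In T-ALL spleen against T-ALL bone marrow 2 in place of 3 were lower. No log2 fold of the 6 genes turned its direction under any scaling or pseudocount. TMM without genes of other cell types moved the median log2 fold of all genes to 0.08, against -0.08, for T-ALL over normal spleen, and there Emr1 and Mpeg1 had -0.54 and -0.63. By RPKM the Lyz1 share was 7.38% and 7.28% in T-ALL and normal bone marrow and 8.56% and 8.28% in T-ALL and normal spleen.

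Ratios to macrophage genes depended on the genes used. With Csf1r alone in place of the list, 0 in place of 2 genes were 2-fold higher and 2 in place of 0 lower in T-ALL bone marrow, 0 in place of 3 were higher in normal spleen against normal bone marrow, and 4 in place of 2 were lower in T-ALL spleen against T-ALL bone marrow. In T-ALL against normal bone marrow the log2 ratios of Emr4, Maf and Mpeg1 turned to -0.0145, -0.52 and -0.60, against 1.41, 0.90 and 0.82 with the list. In normal spleen against normal bone marrow those of Emr1, Emr4, Maf and Mpeg1 turned to -0.0362, -0.46, -0.42 and -2.17, against 2.25, 1.83, 1.87 and 0.11. In T-ALL spleen against T-ALL bone marrow those of Emr1 and Maf turned to -0.0851 and -0.57, against 0.80 and 0.32. In T-ALL against normal spleen no ratio of the 6 genes turned. The list's larger part of Itgam in normal bone marrow is given above, and the cause was not tested. The lowest level rests on 118 reads, Maf in normal bone marrow, and the spread between animals is unknown.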
